A study of Caenorhabditis elegans with 4 samples.

Results

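BLMP-1 peaks on chromosome IV of Caenorhabditis elegans were taken from a ChIP-seq study of embryos, in which chromatin was precipitated through a GFP tag on BLMP-1 and the recovered DNA was sequenced. Membership followed from the chromosome name alone. Chromosome IV held 3437 of the 17858 peaks listed for the whole series, and 2184 of 11261 peaks of ChIP replicate 1 and 551 of 3009 peaks of ChIP replicate 2 served as support. The study had 2 ChIP samples and 2 input samples of sheared chromatin, and only the lists of the ChIP samples and of the whole series were analysed here. All groups came from hermaphrodites of strain OP109, genotype unc-119 (ed3) III, with the insertion wgIs109, which carries blmp-1 joined to TY1, EGFP and FLAG tags and a rescuing unc-119 (+) copy. They were grown at 20 °C, harvested at the embryo stage and fixed with 2% formaldehyde. The tagged gene was a transgene introduced by particle bombardment into 1 strain that had not been outcrossed, and the labels name no deletion of the native blmp-1 gene. The protein precipitated is therefore the tagged copy.

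BLMP-1 belongs to a family of zinc finger regulators that includes mammalian Blimp-1 (PRDM1), a factor in cell fate decisions. In C. elegans it is known for roles in developmental timing, in the epidermis and its cuticle, and in the migration of the gonad's distal tip cells. The autosomes of this worm have arms that recombine often and are rich in repeats, and a central region with more conserved and essential genes. Chromosome IV is also known for broad clusters of piRNA genes, the source of the small RNAs that guard the germ line. Positions of genes were not used here, since no annotation of the build of the lists (WormBase WS220) was given, so peaks are described by position and no gene is named.

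Peaks on IV were mostly narrow and weak, much as on the other chromosomes. The median series peak was 147 bp wide, with quartiles of 68 and 229 bp. The medians were 143.5 bp on II, 139 bp on III, 142 bp on V and 157 bp on X. All series peaks of IV together covered 3.66% of the chromosome. Its length was taken as 17.5 Mb, up to the last peak end in any list, 17491416. Replicate 1 peaks had a median width of 161 bp and covered 2.37%, and replicate 2 peaks had a median of 310 bp and covered 1.10%. Widths under 50 bp occurred in 675 series peaks (19.6%) and in 360 from replicate 1 (16.5%), but in 2 from replicate 2 (0.363%). On the other chromosomes the series share ran from 19.8% on X to 22.9% on III. Each peak carries a score from the authors' caller, read here as a q-value, so that a smaller score marks a stronger peak. The median series score was 6.15e-05 on IV, 4.95e-05 on II, 2.88e-05 on III, 6.13e-05 on V and 6.51e-05 on X. Scores fell below 1e-10 for 212 series peaks (6.17%, against 7.94% of all series peaks). In replicate 1 they did so for 91 peaks (4.17%, against 4.34% on V to 6.24% on III). In replicate 2 they did so for 35 (6.35%, against 7.43% on II to 8.76% on X). The read depth of all libraries is unknown and no input list was analysed here, so a peak here is a called interval and is not shown to be bound by BLMP-1. Whether the replicates came from separate cultures is not stated, and neighbouring peaks are not independent, so the p-values below describe peaks within these lists and are too small as statements about worms.

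Peaks per Mb on IV lay among the values of the other chromosomes, and the order depended on the list. The series list had 196 peaks per Mb on IV, against 192 on II, 207 on III, 181 on V and 177 on X. The ratio of IV to these 4 chromosomes together was 1.05 (95% interval 1.01 to 1.09, two-sided exact binomial test, p = 0.0184, Benjamini-Hochberg adjusted over the 8 results tested p = 0.0294). Taken singly, IV was denser than X (ratio 1.11, adjusted over 4 chromosomes p = 6.98e-05) and than V (1.08, p = 0.0014) in this test, while the differences from II (1.02, p = 0.366) and III (0.950, p = 0.0579) did not pass the exact test. In replicate 1 IV had 125 peaks per Mb, 1.03 times the other chromosomes (unadjusted exact p = 0.202), and in replicate 2 it had 31.5, which was 0.944 times the others (p = 0.234). Neither replicate list thus gave a difference past 0.05 from the 4 chromosomes together. Singly, replicate 1 had IV denser than II (ratio 1.08, adjusted over 4 p = 0.0208), V (1.10, p = 0.00175) and X (1.12, p = 0.000872) by the exact test, whereas in replicate 2 the differences from II (0.894, p = 0.0933), V (1.11, p = 0.0933) and X (0.977, p = 0.72) did not pass this exact test. Chromosome III was denser than IV in both replicates, with IV at 0.832 times III in replicate 1 (adjusted p = 9.74e-09) and at 0.778 times III in replicate 2 (adjusted p = 0.000134) by the exact test.

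The centre of IV was compared with both arms by cutting the chromosome into 3 equal parts at 5830472 and 11660944, which need not match the genetic boundaries of the arms. From left to right the series list had 190, 192 and 207 peaks per Mb, replicate 1 had 115, 120 and 140, and replicate 2 had 30.01, 36.9 and 27.6. Replicate 1 and the series list were highest in the right part, whereas replicate 2 was highest in the middle and lowest on the right. The middle part had 0.968 times the density of the outer parts in the series list (95% interval 0.901 to 1.04, two-sided exact binomial test, p = 0.375 before and after adjustment over 8 results) and 0.937 times in replicate 1 (0.856 to 1.03, exact p = 0.166). In replicate 2 the middle was denser, at 1.28 times the outer parts (1.07 to 1.52, unadjusted exact p = 0.00507). The right part held 35.1% of the series peaks (exact interval 33.5% to 36.7%), 37.4% of replicate 1 peaks (35.4% to 39.5%) and 29.2% of replicate 2 peaks (25.5% to 33.2%), where an even spread would give equal shares. The intervals of replicate 1 and replicate 2 did not overlap. Counted in bases, the series peaks covered 3.69%, 3.64% and 3.65% of the left, middle and right parts, and the median width was 142 bp on the right against 156 bp in the middle. Replicate 1 covered 2.14%, 2.44% and 2.52%, highest on the right as in the peak counts, and replicate 2 covered 1.09%, 1.21% and 0.997%.

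**Figure D1:**
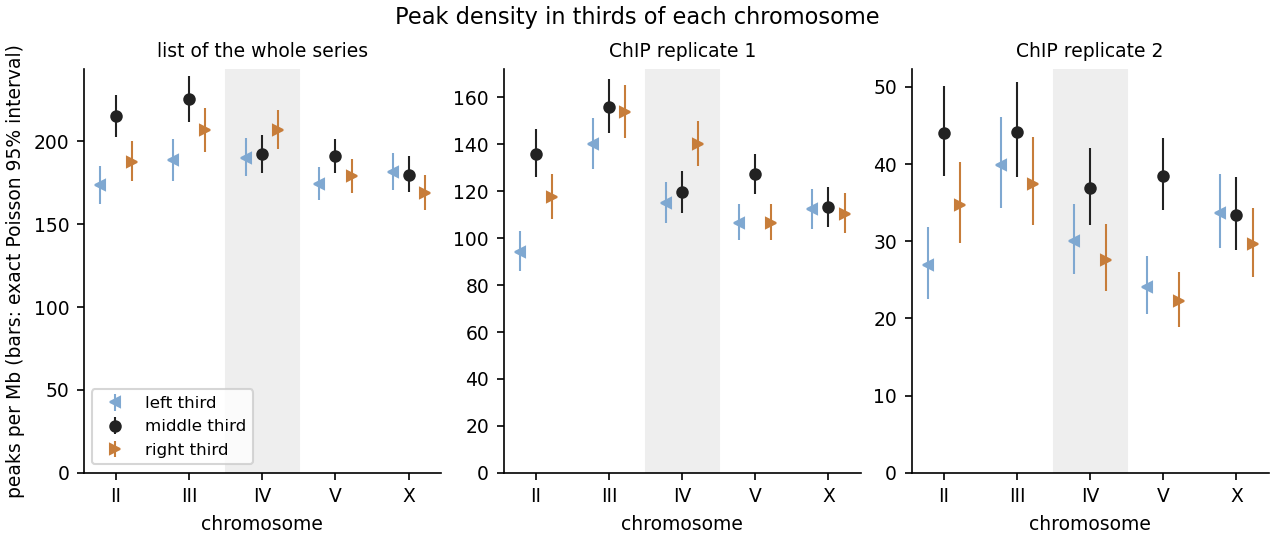
Peaks per Mb in the left, middle and right parts of chromosomes II, III, IV, V and X for the series list, replicate 1 and replicate 2, with exact Poisson 95% intervals that cover counting error only. On IV (shaded) the right part is highest in the series list (207) and in replicate 1 (140), while the middle is highest in replicate 2 (36.9).

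The middle part held a smaller share of the series peaks on IV than on II, III and V. The middle part of IV held 1121 of its series peaks (32.6%), against 35.6% on II, III, V and X together, with an odds ratio of 0.876 (95% interval 0.808 to 0.950, two-sided Fisher's exact test, adjusted over 8 results p = 0.00468). Against single chromosomes the share on IV was lower than on II (37.3%, adjusted over 4 p = 0.000375), III (36.3%, p = 0.00469) and V (35.1%, p = 0.0381) by the same exact test, and did not differ past the threshold from X (33.9%, p = 0.26). In replicate 1 the share was 31.9% on IV against 36.2% elsewhere (unadjusted exact p = 0.000211). In replicate 2 it was 39.0% against 39.5% (exact p = 0.846), with an odds ratio of 0.980 and an interval of 0.805 to 1.19, so the difference passed in the series list and in replicate 1 and did not pass in replicate 2. Whether the lists differ from each other in this was not tested.

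In steps of 1 Mb, the excess on the right of IV came from a run of neighbouring bins. Over the 17 full bins the series list had a median of 187 peaks, from 166 to 245. The highest bin, from 5000001, had 245, and the 3 bins from 14000001 to 17000000 had 242, 242 and 235. Replicate 1 had 168, 146 and 169 peaks in those 3 bins, where its median was 119 and its range 96 to 169. Replicate 2 had 35, 20 and 17 there, with a median of 32 and a range of 17 to 48, so its lowest bin was the one in which replicate 1 was highest. On the other chromosomes the highest full bin of the series list held 226 peaks on II, 237 on III, 217 on V and 204 on X.

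**Figure D2:**
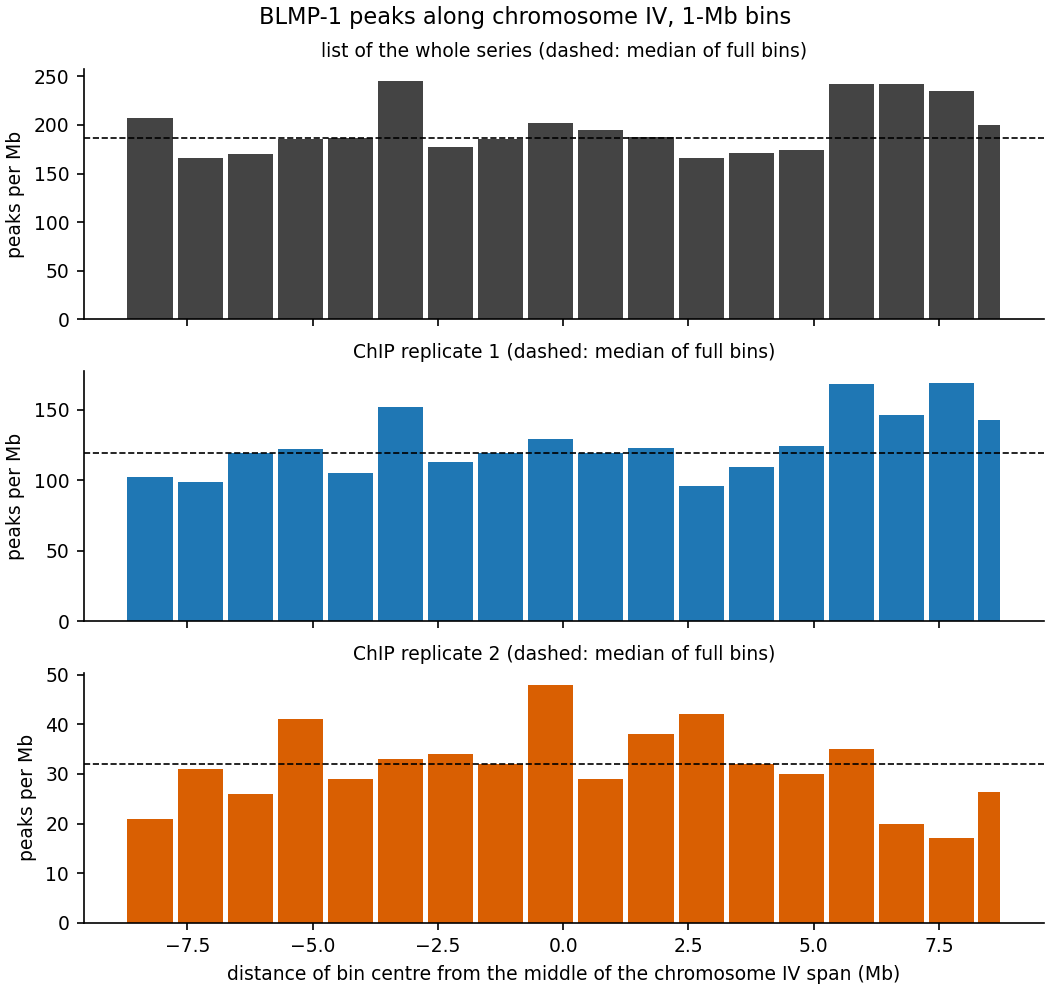
Peaks per Mb in 1-Mb bins along chromosome IV, by distance of the bin from the middle of the chromosome in Mb, for the series list and both replicates, with the median of the full bins dashed. The 3 last full bins on the right are high in the series list (242, 242 and 235) and in replicate 1 (168, 146 and 169), while the last 2 of them are low in replicate 2 (20 and 17).

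This dense stretch of 3 Mb, chosen after its values were seen and so given without a test, makes up 17.2% of IV. It held 719 series peaks (20.9% of those on IV), or 240 per Mb against 188 on the rest of the chromosome, and 483 replicate 1 peaks (22.1%), or 161 per Mb against 117. Replicate 2 had 72 peaks there (13.1%), or 24 per Mb against 33.1. The ratios of inside to outside were thus 1.28 for the series list, 1.37 for replicate 1 and 0.726 for replicate 2. Among the strongest peaks the shares were closer to the length of the stretch. Of the 551 strongest series peaks of IV, as many as replicate 2 has, 101 (18.3%, exact interval 15.2% to 21.8%) fell in the stretch, and of the 551 strongest replicate 1 peaks 112 did (20.3%, 17.0% to 23.9%). Series peaks in the stretch overlapped both replicates less often, in 33 cases (4.59%) against 8.94% outside it, where 9.09% of all series peaks did so. Of its replicate 1 peaks 6.63% were found in replicate 2, against 13.5% outside. In the other direction the shares were close: 32 of its 72 replicate 2 peaks (44.4%) were found in replicate 1, against 47.0% outside. Within the stretch the bins differed: both replicates supported 8.68% of the series peaks from 14000001 to 15000000, but 2.48% in the next bin and 2.55% in the last. The corresponding last 3 full Mb of the other chromosomes were not denser than their rest, with series ratios of 0.925 on II, 0.906 on III, 0.871 on V and 0.839 on X and replicate 1 ratios from 0.825 to 0.983. Replicate 2 was sparser at the right end of each of these chromosomes, with ratios from 0.527 on V to 0.833 on III.

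The 5 densest windows of 100 kb on IV, ranked by series peaks, were spread over the chromosome and differed in their counts of replicate peaks. The median window of IV had 19 series peaks, 12 replicate 1 peaks and 3 replicate 2 peaks over 174 windows, with ranges of 5 to 44, 3 to 31 and 0 to 21. The densest, IV 14600001 to 14700000, held 44 series peaks, 31 replicate 1 peaks and 4 replicate 2 peaks. It ranked first of 848 windows on II, III, IV, V and X by series and by replicate 1 peaks, and 214th, with ties, by replicate 2 peaks. Of its series peaks 3 overlapped both replicates, 19 replicate 1 alone, 1 replicate 2 alone and 21 neither. The counts in both and in neither lay near the shares over all series peaks, 9.09% and 49%. All 4 replicate 2 peaks lay before 14614436, where a stretch of 153388 bp without replicate 2 peaks began that held 53 series peaks and 42 replicate 1 peaks.

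The second window, IV 3800001 to 3900000, was dense in all lists. It held 41 series peaks, 28 replicate 1 peaks and 21 replicate 2 peaks, and its ranks among the 848 windows were 2 by series peaks, 3 by replicate 1 peaks and 1 by replicate 2 peaks. Both replicates supported 12 of its 41 series peaks, a larger share than the 9.09% of all series peaks. Of the 41, 11 were among the strongest 10% of the list. Its series peaks covered 17315 bp, the most of any window of IV, against 9599 bp in the densest window. Replicate 2 alone covered 9673 bp there, more than replicate 1 with 6300 bp.

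The other 3 windows followed at some distance. IV 14000001 to 14100000 held 37 series, 19 replicate 1 and 10 replicate 2 peaks, with 5 series peaks in both replicates. IV 5800001 to 5900000 held 34, 18 and 4, with 2 in both. IV 8000001 to 8100000 held 33, 17 and 11, with 4 in both. Replicate 2 thus had more than 3 times its median count in 3 of the 5 windows and 4 peaks in each of the other two. Over all series peaks 9.09% overlapped both replicates, and the counts in both of these last 3 windows lay near that share. At least 30 series peaks were present in 13 of the 174 windows of IV, in 9 of 152 on II, 10 of 137 on III, 9 of 208 on V and 3 of 177 on X, which puts IV close to III as a share. With the windows shifted by 50 kb the densest was IV 16350001 to 16450000, where the series list had 39 peaks, replicate 1 had 21 and replicate 2 had 3.

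**Figure D3:**
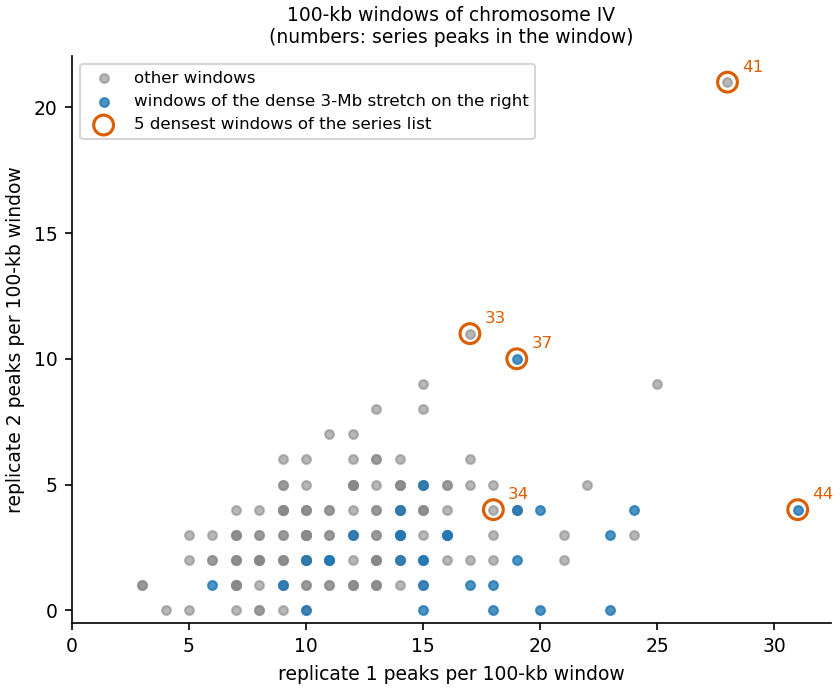
Replicate 1 peaks (horizontal axis) against replicate 2 peaks (vertical axis) in each 100-kb window of chromosome IV, with the 5 densest windows of the series list ringed and labelled with their series peaks. The window with 44 series peaks has 31 and 4 peaks, and the window with 41 has 28 and 21, apart from all others.

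The replicate counts per window went together less closely on IV than on the other chromosomes, as a description across windows, which share libraries and lie side by side. Spearman's rho between the replicate counts was 0.328 over the 174 windows of IV, against 0.616 over 152 windows of II, 0.497 over 137 of III, 0.545 over 208 of V and 0.595 over 177 of X. Pearson's r was 0.386 on IV and 0.490 to 0.651 on the others. Outside the dense 3-Mb stretch rho was 0.444 over 144 windows, and inside it 0.236 over 30. Pearson's r was 0.521 outside it, above the values of III (0.490) and V (0.496), while rho outside it was below that of each of the other 4 chromosomes. The stretch was chosen after its values were seen, and the other chromosomes kept all their windows. The windows outside it include IV 3800001 to 3900000, with 28 and 21 peaks, whose part in r was not tested.

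Within the second window lay the run of closely spaced peaks with the most members. When series peaks with gaps of at most 3000 bp were joined, a distance chosen after the values were seen, IV 3846398 to 3876474 (30077 bp) held 27 series peaks in a row, the most of any of the 7947 runs on the 5 chromosomes, followed by 23 on II and 19 on III. Peaks covered 48.0% of the run in the series list, 15.6% in replicate 1 (19 peaks) and 28.6% in replicate 2 (17 peaks). Both replicates supported 11 of the 27, and neither supported 7, where 9.09% of all series peaks overlapped both and 49% neither. The next runs on IV, at 16387137 to 16408194 with 15 series peaks and at 14083399 to 14096895 with 13, lay in the dense stretch and had 1 and 2 peaks supported by both replicates.

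The 5 longest stretches of IV without a series peak held at most 3 whole peaks of replicate 1 and 0 of replicate 2. The longest, IV 6657910 to 6740362, ran for 82453 bp, against 56988 bp on II, 54791 bp on III, 222941 bp on V and 86814 bp on X. It contained no replicate 2 peak and 1 replicate 1 peak with the weak score of 0.000422, and a second replicate 1 peak reached into it, so that 58521 bp were empty in all 3 lists. The second, IV 11241800 to 11295230 (53431 bp), held 2 replicate 1 peaks, and the next, IV 9330852 to 9377197 (46346 bp), held 3, with best scores of 0.000311 and 2.2e-05. The other two of the 5 longest, IV 5230724 to 5271502 (40779 bp) and IV 13640349 to 13677090 (36742 bp), were empty in both replicates. Gaps over 20 kb took up 18.1% of IV in the series list, between 13.4% on III and 20.9% on X.

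The longest gaps of each replicate held peaks of the series list and in part of the other replicate. The longest in replicate 1, IV 11165605 to 11270764 (105160 bp), contained 9 series and 2 replicate 2 peaks. The next 3 in replicate 1, of 73116, 61295 and 60843 bp, contained 4, 7 and 9 series peaks and 0 replicate 2 peaks, and the first of these held the stretch at 5230724 that was empty in all lists. The longest in replicate 2, IV 14107934 to 14328011 (220078 bp), contained 32 series and 16 replicate 1 peaks, and the next, IV 16687269 to 16865525 (178257 bp), 32 and 30. Of the 5 longest replicate 2 gaps on IV, 3 lay in the dense stretch. The sparsest 100-kb windows of the series list, IV 4100001 to 4200000 and IV 11200001 to 11300000, had 5 peaks each. They held 7 and 4 replicate 1 peaks and 1 and 0 replicate 2 peaks.

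Neighbouring series peaks on IV stood 2681 bp apart at the median, against 2992 bp on II, 2711 bp on III, 3094 bp on V and 3097 bp on X. The shortest gap was alike on all of them, with 204 bp on IV, 202 bp on II and X and 201 bp on III and V. In replicate 1 the median gap was 4597 bp and in replicate 2 it was 18370.5 bp. A neighbour within 1000 bp was present for 1351 series peaks of IV (39.3%, against 36.9% of all series peaks). The share on II, III, V and X together was 37.6%, and the odds ratio of 1.08 (95% interval 0.995 to 1.16) did not pass (two-sided Fisher's exact test, adjusted over 8 results p = 0.0912). Singly, close neighbours were more frequent on IV than on V (35.6%) and X (35.2%), both with an adjusted p of 0.00221 in this exact test, while II (39.3%, p = 1) and III (41.1%, p = 0.188) gave no difference past the threshold. The replicate lists gave 27.1% on IV against 27.1% elsewhere (replicate 1, exact p = 0.957) and 16.7% against 15.3% (replicate 2, exact p = 0.432). From left to right along IV, close neighbours were present for 38.1%, 39.5% and 40.2% of the series peaks, for 25.2%, 27.0% and 28.6% in replicate 1, and for 22.3%, 16.7% and 10.6% in replicate 2. The order in replicate 2 was thus opposite to that of the other lists, and the run of 27 series peaks, with 17 replicate 2 peaks, lies in the left part.

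Strong peaks made up a smaller share of the peaks on IV than on II, III and X. Among the strongest 10% of the series list, ranked by score over all chromosomes, 276 lay on IV, which is 8.03% of its peaks against a background of 10% by definition. On II, III, V and X together the share was 10.3%, and the odds ratio was 0.763 (95% interval 0.664 to 0.875, two-sided Fisher's exact test, adjusted over 8 results p = 0.000623). The share was 12.7% on III (adjusted over 4 p = 6.78e-09), 10.99% on X (p = 9.7e-05), 10.4% on II (p = 0.00188) and 7.78% on V (p = 0.695) in the same exact test. Replicate 1 gave 8.24% on IV against 10.1% (unadjusted exact p = 0.00822). Replicate 2 gave 8.53% against 9.88% (exact p = 0.375), a difference in the same direction that did not pass in its 551 peaks. With peaks ranked by width in place of score the ratio of the shares moved from 0.782 to 0.964 (exact p = 0.576), a difference that did not pass. Within IV the strongest 10% took up 7.66% of the peaks in the left part, 9.55% in the middle and 6.96% on the right.

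The 2 strongest series peaks of IV were, of its 10 strongest, those on which the replicate ranks differed most. IV 11694533 to 11700856 (6324 bp) was listed with a score of 0 in the series list and in replicate 1, where it was covered in full. Replicate 2 had 1 peak of 129 bp there, of rank 1455 and covering 2.04%. IV 10089676 to 10090800 (1125 bp, score 4.8e-223) was also covered in full by replicate 1, with rank 5, and to 45.0% by a replicate 2 peak of rank 1631. Both peaks were thus among the 5 strongest of replicate 1 and near the middle of the 3009 ranks of replicate 2.

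The next 8 ranked high in all lists. IV 14032646 to 14035383 (2738 bp) had a series score of 9.96e-93 and ranked 25 in that list, 52 among replicate 1 peaks and 13 among replicate 2 peaks. IV 5183517 to 5184301 (785 bp) had a score of 5.73e-85 and ranks of 27, 28 and 24. IV 14088817 to 14090276 (1460 bp) had a score of 5.77e-74 and was made of 2 peaks in each replicate, the better ones of rank 51 and 43. These 3 peaks lay within the 52 strongest of every list, and those at 14032646 and 14088817 fell in the dense window from 14000001. IV 2998442 to 2999356 (915 bp, score 2.18e-73) matched a replicate 1 peak with the same ends, of rank 45, and a replicate 2 peak of rank 33. IV 14793663 to 14794566 (904 bp, score 3.94e-73) had replicate ranks of 35 and 42. IV 7654303 to 7654721 (419 bp, score 2.67e-68), the narrowest of the 10, had 46 and 28. IV 682099 to 683497 (1399 bp, score 7.17e-64) had 55 and 47, and IV 3384580 to 3385637 (1058 bp, score 5.07e-56) had 84 and 51. Of the 10 strongest peaks, 4 lay in the left part, 2 in the middle and 4 on the right.

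Of the 100 strongest series peaks of IV, with these 10 among them, 97 overlapped both replicates by at least 1 bp. This compares with 96 on II, 99 on III, 97 on V and 98 on X. Among the 100 strongest of IV in replicate 1, 86 had a partner in replicate 2, and among the 100 strongest in replicate 2, 92 had one in replicate 1. The strongest in replicate 1 without a replicate 2 peak were IV 13027886 to 13029541 (score 2.13e-21, rank 179), IV 3867188 to 3868126 (5.57e-21, rank 186) and IV 8252887 to 8253488 (3.94e-15, rank 320). The nearest replicate 2 peaks were 7243, 572 and 19310 bp away. In replicate 2 the strongest without a replicate 1 peak were IV 3859056 to 3860053 (4.8e-09, rank 337), IV 6586626 to 6587059 (1.21e-07, rank 474) and IV 11428229 to 11428830 (1.37e-07, rank 494), with the nearest replicate 1 peaks 433, 743 and 5353 bp away. Both IV 3867188 and IV 3859056 belong to the run of 27 peaks, where the replicates had peaks side by side as well as overlapping ones.

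Support in the replicates divided the series peaks of IV into classes of different strength. Both replicates overlapped 276 of the 3437 peaks (8.03%, exact 95% interval 7.14% to 8.99%, against 9.09% of all series peaks). Their median width was 435.5 bp and their median score 4.5e-13. Replicate 1 alone overlapped 1265 (36.8%), with 167 bp and 1.67e-05, and replicate 2 alone 211 (6.14%), with 197 bp and 1.18e-05. Neither overlapped 1685 (49.0%, against 49% of all series peaks), with 104 bp and 0.000214. On the other 4 chromosomes replicate 1 alone overlapped 33.1% (II) to 39.3% (III) of series peaks. For replicate 2 alone the share ran from 5.43% on X to 6.88% on II. Over all chromosomes 45.1% of series peaks overlapped replicate 1 and 15% overlapped replicate 2, with peaks in both counted in each. The right part held 38.2% of the peaks with replicate 1 support alone, but 28.6% of those in both and 28.9% of those with replicate 2 alone. The best peak in neither replicate ranked only 1958th in the series list, whereas the best with replicate 1 alone, IV 3867175 to 3868202, ranked 305th.

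Support fell steeply from the stronger to the weaker peaks. The series list may share reads with the replicates, so its overlap with them is not independent support. When the series peaks of IV were cut into 10 classes by score, both replicates overlapped 63.4% of the strongest class (exact interval 58.0% to 68.5%), 12.2% of the second and 1.74% of the next. Neither overlapped 0.581% of the strongest class and 87.8% of the weakest. The median width was 468.5 bp in the strongest class and 67 bp in the weakest, and its part in the overlap was not tested. None of the 8th, 9th and 10th classes, with 343 or 344 peaks each, overlapped both, for which the exact interval reaches 1.07%. In replicate 1, 63.0% of the strongest class on IV were found in replicate 2 and 3.21% of the weakest. In replicate 2, 55 of the 56 strongest were found in replicate 1 (98.2%), and the share was 29.1% in the weakest class and lowest, at 16.4%, in the 8th.

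**Figure D4:**
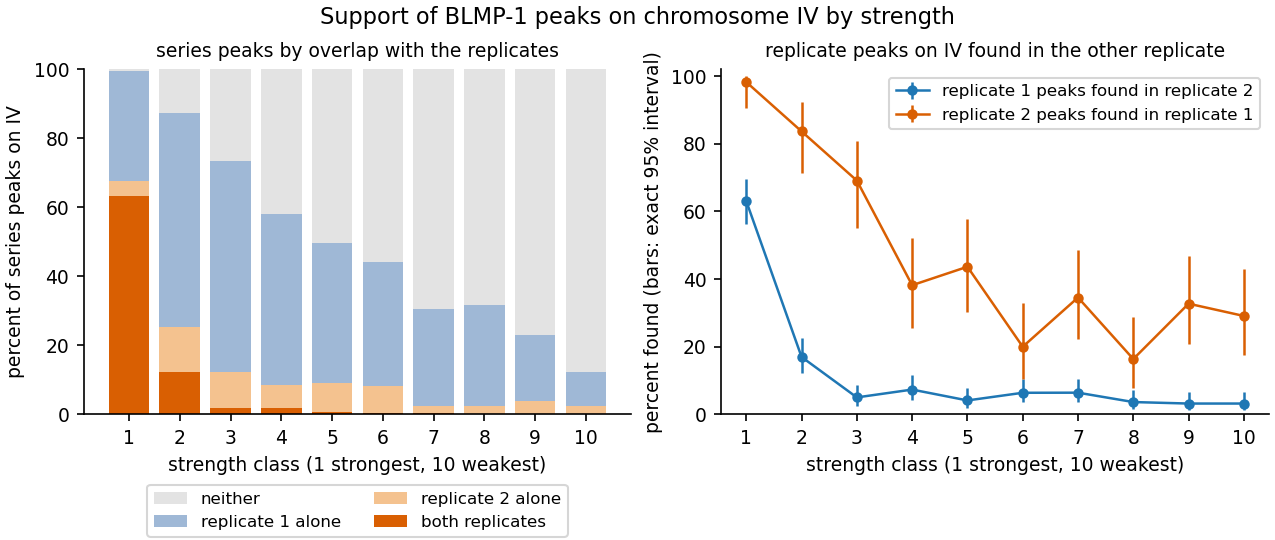
Left, percent of series peaks of IV in 10 strength classes that overlap both replicates, replicate 1 alone, replicate 2 alone or neither; right, percent of replicate peaks of IV found in the other replicate by strength class, with exact 95% intervals. The share in both replicates drops from 63.4% in the strongest class to 12.2% in the second, and replicate 2 peaks stay above replicate 1 peaks in each class. The series list may share reads with the replicates.

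Replicate agreement was lower on IV than on III and X in each of 3 measures, and not shown to differ from V. The 3 measures rest on the same replicate lists and are not independent of each other. Of the 551 replicate 2 peaks of IV, 257 were found in replicate 1 (46.6%, exact interval 42.4% to 50.9%, against 51.5% of all replicate 2 peaks). The share on the 4 other chromosomes was 50.7%, and the odds ratio of 0.850 (0.702 to 1.03) did not pass (two-sided Fisher's exact test, adjusted over 8 results p = 0.0999). With replicate 1 shortened to its 3009 strongest peaks, the length of replicate 2, the ratio of these shares moved from 0.920 to 0.844 and passed (exact p = 0.00818). In the full lists the share was lower on IV than on III (54.3%, adjusted over 4 p = 0.0233) and X (56.0%, p = 0.00753) in this exact test, and did not differ past the threshold from II (50.6%, p = 0.203) and V (42.3%, p = 0.203).

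Of the 2184 replicate 1 peaks of IV, 261 were found in replicate 2 (12.0%, exact interval 10.6% to 13.4%, against 13.8% of all replicate 1 peaks). The share elsewhere was 14.0%, an odds ratio of 0.835 (0.721 to 0.966, two-sided Fisher's exact test, adjusted over 8 results p = 0.0276). Singly, IV was lower than II (15.2%, adjusted over 4 p = 0.00535), III (14.8%, p = 0.0102) and X (16.0%, p = 0.000649), and not shown to differ from V (10.6%, p = 0.16), by the same exact test. The share of series peaks in both replicates, 8.03%, was likewise below the 9.45% of the other chromosomes (odds ratio 0.836, 0.727 to 0.960, exact test, adjusted over 8 results p = 0.0273). It was below II (9.61%, adjusted over 4 p = 0.0351), III (11.05%, p = 0.000211) and X (10.7%, p = 0.000497) by the exact test, while V had 7.12% (p = 0.154). Of the replicate peaks on IV, 71.1% of replicate 1 and 88.4% of replicate 2 overlapped a series peak, against 71.8% and 89.2% over all chromosomes.

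**Figure D5:**
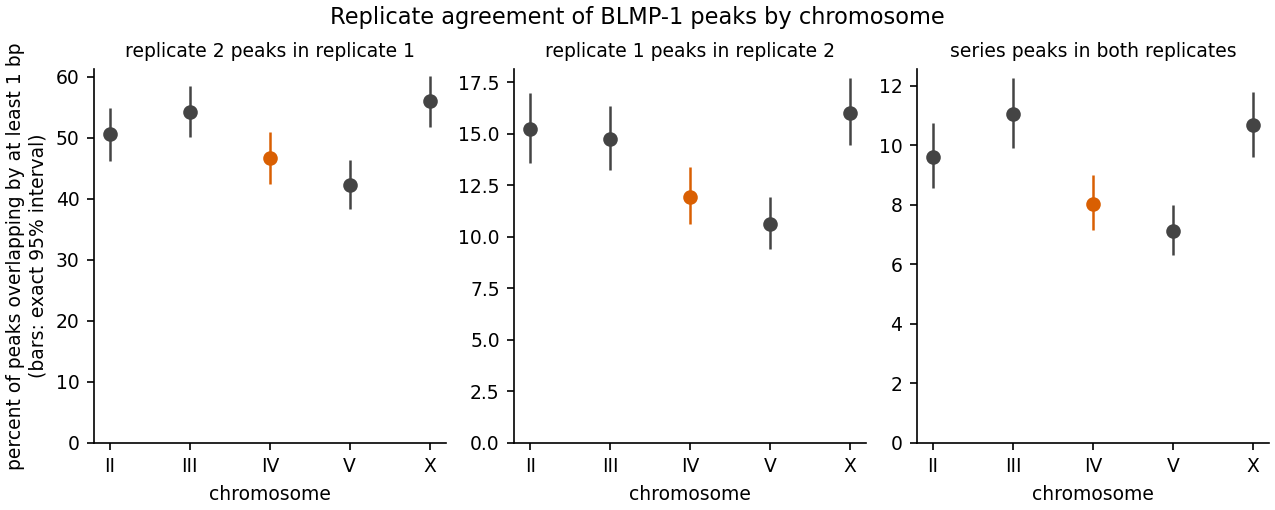
Percent of replicate 2 peaks overlapping replicate 1, of replicate 1 peaks overlapping replicate 2 and of series peaks overlapping both, by chromosome, with exact 95% intervals. IV (46.6%, 12.0% and 8.03%) lies second lowest in each panel, above V (42.3%, 10.6% and 7.12%). The panels rest on the same replicate lists and are not independent.

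Split by strength, the series peaks of IV had shares in both replicates close to those elsewhere. Of its 276 peaks among the strongest 10%, 205 overlapped both replicates (74.3%, exact interval 68.7% to 79.3%), against 74.1% (71.6% to 76.4%) on II, III, V and X together. Among all other series peaks the shares were 2.25% on IV and 2.06% elsewhere. The lower overall share on IV went with its smaller share of strong peaks, whose part in it was not tested further. In replicate 1 the strongest 10% were found in replicate 2 in 67.2% of cases on IV (59.8% to 74.0%) and 73.2% elsewhere, and the other peaks in 6.99% and 7.31%. In replicate 2, 47 of 47 of the strongest 10% on IV were found in replicate 1, against 98.7% elsewhere, and 41.7% and 45.5% of the other peaks.

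Matched peaks of the replicates lay about as close together on IV as on the other chromosomes. The pairs were chosen for sharing at least 1 bp, which itself limits the distance between midpoints. In the 257 matched pairs of IV the midpoints were 64.5 bp apart at the median. The medians were 66.5 bp on II, 64.5 bp on III, 65 bp on V and 75 bp on X. Midpoints were within 100 bp in 65.4% of pairs on IV, against 60.3% on X to 67.7% on III. The median widths on IV were 339 bp in replicate 1 and 344 bp in replicate 2. Scores of the pairs correlated with Spearman's rho of 0.582, against 0.549 on II, 0.601 on III, 0.650 on V and 0.584 on X, as a description across peaks. On the log10 scale Pearson's r was 0.236 on IV, the lowest of the 5 chromosomes, where II had 0.559 and V 0.922. The replicate 1 score of 0 at IV 11694533 has no log10, so this r depends on how that score was treated, which is not given here. Without the pairs at IV 11694533 and IV 10089676, r was 0.780 and rho 0.5998 over 255 pairs, so the low r rested on these 2 positions. No pairs were left out on the other chromosomes.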

How the data were processed

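Peaks of 2 ChIP samples were analysed in 3 deposited lists, 1 for each replicate and 1 for the whole series. Samples were grouped and numbered by their titles. Per the file headers, coordinates are on WormBase WS220, and per the source column the authors called peaks with PeakSeq. Not given in the sources used here were the PeakSeq version, aligner, filters, threshold, role of the inputs and any pooling behind the series list, which may share reads with the replicates. The deposited score, read as a q-value from its range and its order along the peak numbers, ranked the peaks. Peak numbers absent from the lists analysed here came to 428 for the series, 148 for replicate 1 and 0 for replicate 2. No other value columns were used (0).

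Overlap meant at least 1 shared bp. Peaks were placed by midpoint and gaps ran from end to start. Two-sided exact binomial tests compared densities and two-sided Fisher's exact tests compared shares, with Benjamini-Hochberg adjustment over the 8 series results or over 4 chromosomes. Other p-values are unadjusted. Intervals are exact (Clopper-Pearson for shares) at 95% and cover counting error only. The overlap and neighbour calls, and planted differences in share and density, were tried on simulated peaks of equal width placed at random. How the p-values behave for clustered peaks of varied width was not tested. By rule, the 10 strongest peaks, 5 densest windows, 5 longest empty stretches and 3 strongest peaks of each replicate without a partner are named, as descriptions. The members, windows and comparisons were chosen with earlier results of these data known. The tools were bedtools 2.31.1 and Python 3.11.15 with scipy 1.17.1, pandas 2.3.3, numpy 2.4.6 and matplotlib 3.10.9.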

Additional observations from a re-analysis of the deposited data

How the results depend on the processing

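Of 38 alternatives with a test, 24 left the direction and the side of the 0.05 threshold as they were. Of the 3 without one, covered bases gave 0.991 for the middle against both arms, and shifted windows and covered bases each put another 100-kb window first. Ratios below set IV against II, III, V and X, and p-values are unadjusted from two-sided exact tests. The density ratio of 1.05 was 1.01 in the stronger 50% of the series list (exact p = 0.72) and turned to 0.911 in its 3009 strongest peaks (p = 0.0619), an alternative chosen after seeing the data. With single replicate lists in its place it ran from 0.944 to 1.03. The ratio of the middle part to both arms, 0.968, turned to 1.004 in the stronger 50% (exact p = 0.938) and to 1.06 in the 3009 strongest (p = 0.511), and ran from 0.937 to 1.28 in the replicates. The middle share ratio of 0.916 ran from 0.882 to 0.988 in the replicates. The ratio for close neighbours, 1.05, turned to 0.994 in the stronger 50% (exact p = 0.925), passed at a distance of 5000 bp (1.02, p = 0.0153) and ran from 0.997 to 1.09 in the replicates. The ratio for the strongest 10% became 0.964 by width (exact p = 0.576) and ran from 0.815 to 0.864 in the replicates. The share of replicate 2 peaks found in replicate 1 passed with lists of equal length (0.844, exact p = 0.00818). The cause of these changes was not tested. No paired analysis was possible because the inputs gave no list for this work and the tests compare counts of peaks, not a model over samples.

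Read depth is unknown, so the different lengths of the replicate lists could not be set against depth. With 2 ChIP libraries, differences between them have no replicate check. The role of the inputs in the peak calling is not given in the sources used, and no input list was analysed. How far background shared by the libraries was removed is thus unknown, and it cannot be told apart from binding here.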
